A study of Mus musculus with 12 samples.

Results

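The Hedgehog pathway was examined in mouse gastruloids through 10 genes: the ligand *Shh*, the secreted factor *Scube3*, the co-receptors *Boc*, *Cdon* and *Gas1*, the receptor *Ptch1*, the ligand-binding inhibitor *Hhip* and the transcription factors *Gli1*, *Gli2* and *Gli3*. They were matched by symbol and taken by Ensembl identifier from a count table of 55141 genes, and each of the 10 symbols had a single identifier. The list was drawn up with earlier results of these libraries known, and its genes are treated as chosen by their differences between embedding times, so those differences are given below as a description, with no test.

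Gastruloids are aggregates of embryonic stem cells that form tissues of the early embryo in culture. Here they were made from 129/SVEV cells seeded at 300 per well, and all received a 24 h pulse of 3 μM CHIR99021, a Wnt agonist, after 48 h of aggregation. They were embedded in a Dextran-PEG hydrogel either 72 h or 96 h after seeding, with reactive groups at 1.0 mM (softer gels) or 1.5 mM (stiffer gels), and all were harvested 120 h after seeding after release with dextranase. Each of the 4 groups had 3 libraries of poly-A RNA (each embedding time in each gel), and each library pooled about 30 gastruloids. Gastruloids embedded at 72 h had therefore spent longer in the gel at harvest than those embedded at 96 h, and embedding time and time in the gel cannot be told apart. Gastruloids without a gel were not analysed here. In pooled bulk RNA, fewer cells of a type and less RNA per cell cannot be told apart either.

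As background, Hedgehog ligands are lipid-modified secreted proteins. In the mouse embryo *Shh* is made by the node, notochord, floor plate and gut endoderm, and it patterns the ventral neural tube and the sclerotome of the somites. Without ligand, PTCH1 holds the membrane protein SMO inactive and GLI3 and GLI2 are processed to repressors. Ligand binding, helped by BOC, CDON and GAS1, frees SMO, and full-length GLI proteins then activate targets that include *Ptch1*, *Hhip* and *Gli1* themselves.

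Total counts ran from 23011791 to 27609422 per library, with a median of 25274302. Levels of single genes are given as CPM (counts scaled to a common library size with TMM factors) when libraries are compared, and as the FPKM values of the authors (fragments per kilobase of transcript, scaled to depth) when genes are compared with each other. A gene passed the test at a Benjamini-Hochberg adjusted p below 0.05, over all genes tested with edgeR's quasi-likelihood test, and was called DE when its absolute log2 fold change was also above 1. Differences between embedding times are 72 h over 96 h.

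*Ptch1*, *Hhip* and *Gli1* are the members that Hedgehog signalling itself induces, and no promoter was given for *Gli1*. For *Ptch1* and *Hhip* the 250 bases upstream of their RefSeq starts (GRCm38.p6) are shown with each CpG in capitals. The *Ptch1* stretch lies at chr13:63565736-63565985 on the minus strand, before a start inside the annotated gene, and the *Hhip* stretch at chr8:80058009-80058258, also on the minus strand. Neither overlaps an annotated exon.
*Ptch1*: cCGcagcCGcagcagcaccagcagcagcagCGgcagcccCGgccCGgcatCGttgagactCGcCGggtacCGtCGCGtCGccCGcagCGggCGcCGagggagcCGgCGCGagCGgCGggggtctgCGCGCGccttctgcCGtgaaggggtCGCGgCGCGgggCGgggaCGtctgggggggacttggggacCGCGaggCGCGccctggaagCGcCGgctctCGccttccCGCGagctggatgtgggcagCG
*Hhip*: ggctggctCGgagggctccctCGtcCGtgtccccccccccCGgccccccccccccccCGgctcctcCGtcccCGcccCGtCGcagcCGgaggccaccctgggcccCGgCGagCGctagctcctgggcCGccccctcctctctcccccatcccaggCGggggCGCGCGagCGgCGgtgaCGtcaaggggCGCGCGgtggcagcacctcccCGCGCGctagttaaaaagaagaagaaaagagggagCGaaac
The *Ptch1* stretch held 41 CpG with 78.4% G and C, and the *Hhip* stretch 28 CpG with 76.0%, against a median of 6 CpG and 52.4% over all 32851 promoters of the RefSeq table. The Gli consensus GACCACCCA was searched on both strands, together with its shorter form GACCACC, which any full match also contains, in the window from 250 bases before to 50 after each start. Promoters were given for 7 of the 10 members, namely *Scube3*, *Cdon*, *Gas1*, *Ptch1*, *Hhip*, *Gli2* and *Gli3*. None of these 7 held either form, which occurred in 0.253% and 2.8% of all promoters. Among 38 other listed genes with a promoter, *Ift88* and *Olig2* held the shorter form.

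*Shh* (ENSMUSG00000002633, mm10 chromosome 5, 28456815 to 28467256, minus strand) encodes the ligand. It stood at 53.5, 48.4 and 63.0 CPM in the 3 libraries embedded at 72 h in softer gels and at 23.8, 22.3 and 18.2 CPM in those embedded at 96 h. In stiffer gels the libraries held 43.3, 54.1 and 44.4 CPM at 72 h and 23.5, 13.3 and 14.4 CPM at 96 h. All 6 libraries embedded at 72 h were above all 6 embedded at 96 h, and the fold was alike in both gels: the log2 fold change was 1.37 ± 0.13 (SE, n = 3 against 3) in softer gels, a fold of 2.58, and 1.46 ± 0.19 in stiffer gels, a fold of 2.75. These levels rest on 331 to 1513 counts per library.

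*Scube3* (ENSMUSG00000038677, chromosome 17, 28142141 to 28174854, plus strand) belongs to a family of secreted proteins whose relatives help release the lipid-modified ligand from the cells that make it. It ran the other way to *Shh*. The libraries embedded at 72 h held 7.42, 4.70 and 10.5 CPM in softer gels and 6.89, 7.79 and 8.72 CPM in stiffer gels, against 29.2, 25.3 and 27.5 CPM and 26.3, 23.4 and 27.2 CPM at 96 h. The groups did not overlap, and *Scube3* had the largest absolute difference among the 10 genes in both gels, with log2 fold changes of -1.85 ± 0.22 and -1.72 ± 0.12 (SE), so that its level at 72 h was 3.62-fold and 3.29-fold lower.
Its FPKM values were not usable at 72 h. *Scube3* is listed at 0 FPKM in 4 of the 6 libraries embedded at 72 h, where it has 115 to 175 counts. The same holds for other genes: of 12068 genes with at least 100 counts in some library, 489 are listed at 0 FPKM in some such library. The 3' end of *Scube3* overlaps C230013L11Rik, which had 159 to 273 counts per library at 72 h and 173 to 248 at 96 h, and the strand setting of the counting is not given in the sources used here.

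**Figure D1:**
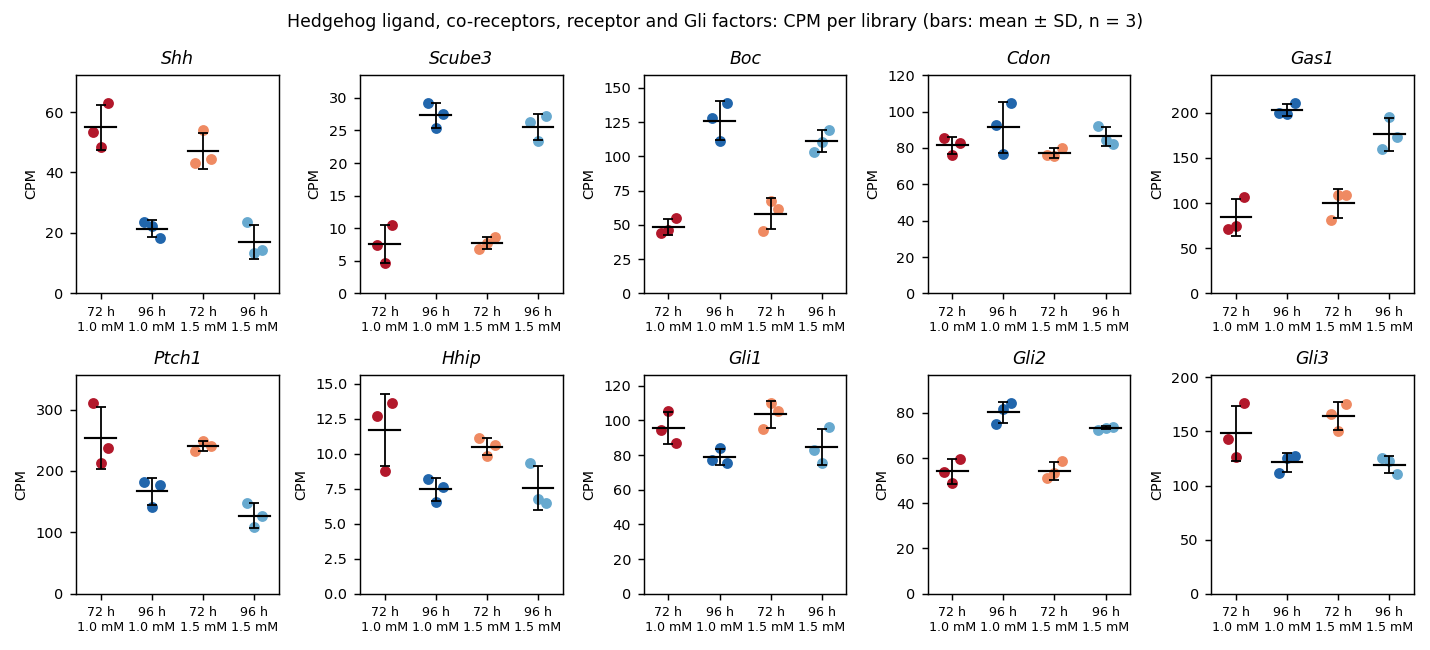
CPM (vertical axis, from 0) of each of the 10 genes in every library, by embedding time and gel concentration. Points are libraries, and the lines and bars are the mean and SD of 3 libraries. *Shh*, *Ptch1* and *Hhip* sit higher in the groups embedded at 72 h, *Scube3*, *Boc*, *Gas1* and *Gli2* sit lower, and *Cdon* keeps to between 75.4 and 104.6 CPM throughout.

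The co-receptors bind the ligand at the cell surface and present it to PTCH1. *Boc* (ENSMUSG00000022687, chromosome 16, 44485049 to 44558897, minus strand), an immunoglobulin-superfamily membrane protein, held 43.8, 46.2 and 55.0 CPM at 72 h in softer gels and 128, 111 and 139 CPM at 96 h. In stiffer gels it held 45.7, 67.3 and 61.6 CPM at 72 h and 103, 111 and 119 CPM at 96 h. Every library embedded at 72 h was below every library embedded at 96 h. The log2 fold changes were -1.38 ± 0.11 and -0.94 ± 0.13 (SE) in softer and stiffer gels.
*Gas1* (ENSMUSG00000052957, chromosome 13, 60174405 to 60177365, minus strand), a membrane-anchored glycoprotein, followed *Boc*. It held 71.0, 74.1 and 107 CPM at 72 h in softer gels against 199.7, 199 and 211 CPM at 96 h, and 81.0, 109 and 109 CPM against 159, 196 and 173 CPM in stiffer gels. Again no library at 72 h reached the lowest at 96 h, and the log2 fold changes were -1.27 ± 0.14 and -0.83 ± 0.12 (SE).
*Cdon* (ENSMUSG00000038119, chromosome 9, 35421128 to 35507652, plus strand), the close relative of *Boc*, did not share this pattern. It held 76.3 to 85.4 CPM at 72 h and 76.9 to 104.6 CPM at 96 h in softer gels, which overlap, and 75.4 to 80.2 CPM and 82.4 to 92.3 CPM in stiffer gels, which do not. Its log2 fold change was -0.16 in both gels, with an SE of 0.11 and 0.068.

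*Ptch1* (ENSMUSG00000021466, chromosome 13, 63508328 to 63573598, minus strand) is both the receptor and a direct target, and its transcript is widely used as a readout of the pathway. It held 310.1, 213 and 237 CPM at 72 h in softer gels and 181, 142 and 177 CPM at 96 h, and in stiffer gels 232.4, 249.3 and 241.2 CPM at 72 h and 147, 108 and 127 CPM at 96 h. The groups did not overlap in either gel, although replicate 1 at 72 h in softer gels stood well above the other two. The log2 fold changes were 0.61 ± 0.14 and 0.91 ± 0.099 (SE), folds of 1.52 and 1.89, which makes *Ptch1* higher where *Shh* is higher and *Boc* and *Gas1* are lower. As a description only, *Ptch1* no longer passed in softer gels when replicate 2 or replicate 3 of the 96 h group was left out, at 0.51 and 0.65. Nor did it with limma on log2(FPKM + 1) and log2(FPKM + 0.1), at 0.56 and 0.58.
*Hhip* (ENSMUSG00000064325, chromosome 8, 79965853 to 80058006, minus strand), a membrane protein that binds and sequesters the ligand and is also induced by it, had the fewest counts of the 10 genes at 96 h. It held 12.7, 8.78 and 13.6 CPM at 72 h against 8.20, 6.58 and 7.65 CPM at 96 h in softer gels, and 11.1, 9.84 and 10.6 CPM against 9.34, 6.78 and 6.46 CPM in stiffer gels. The groups came close without overlapping, and the log2 fold changes were 0.65 ± 0.18 and 0.48 ± 0.16 (SE).

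The Gli factors differed from one another. *Gli1* (ENSMUSG00000025407, chromosome 10, 127329882 to 127341974, minus strand), an activator that depends on pathway activity for its own transcription, held 87.0 to 106 CPM at 72 h and 75.2 to 84.1 CPM at 96 h in softer gels, and 95.1 to 109.8 CPM and 75.2 to 96.0 CPM in stiffer gels, where the ranges overlap. Its log2 fold changes were 0.29 ± 0.090 and 0.28 ± 0.095 (SE), the smallest of the 3 targets. *Gli2* (ENSMUSG00000048402, chromosome 1, 118834132 to 119053619, minus strand), the main activator early in signalling, was lower at 72 h in both gels, with 48.9 to 59.8 CPM against 75.2 to 84.2 CPM in softer gels and 51.1 to 58.9 CPM against 72.6 to 74.0 CPM in stiffer gels. Its log2 fold changes were -0.56 ± 0.092 and -0.43 ± 0.069 (SE). *Gli3* (ENSMUSG00000021318, chromosome 13, 15463235 to 15730026, plus strand), the main source of repressor, held 126 to 176 CPM at 72 h against 111 to 128 CPM at 96 h in softer gels, which overlap, and 150.4 to 176 CPM against 111 to 125 CPM in stiffer gels, which do not. Its log2 fold changes were 0.29 ± 0.12 and 0.46 ± 0.077 (SE).

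Counted by rule, and as a description only, 4 members were DE in softer gels (*Shh* higher, and *Scube3*, *Boc* and *Gas1* lower) and 2 in stiffer gels (*Shh* higher and *Scube3* lower). Over all genes tested, 2.61% were DE and higher and 1.69% DE and lower in softer gels, and 1.61% and 1.57% in stiffer gels. By adjusted p alone, 3 members were higher and 4 lower in each gel, where *Shh* and *Ptch1* were higher in both, *Hhip* passed in softer and *Gli3* in stiffer gels, and *Scube3*, *Boc*, *Gas1* and *Gli2* were lower in both. The shares over all genes were 5.97% higher and 3.27% lower in softer gels and 10.4% and 8.98% in stiffer gels. The 72 h and 96 h libraries lay apart for 8 members in softer gels and 9 in stiffer gels, where 28.4% and 39.9% of all genes tested lay apart. Across both gels 9 members passed, all except *Cdon*, where 31.1% of all genes passed. Since these contrasts chose the members, nothing is read from these counts. The call of *Hhip* in softer gels was lost when any library except replicate 2 embedded at 72 h was left out, with log2 fold changes from 0.53 to 0.82 over the 6 libraries left out. It was also lost with limma-voom and upper-quartile scaling, and *Hhip* and *Gli1* were called in stiffer gels with DESeq2.

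**Figure D2:**
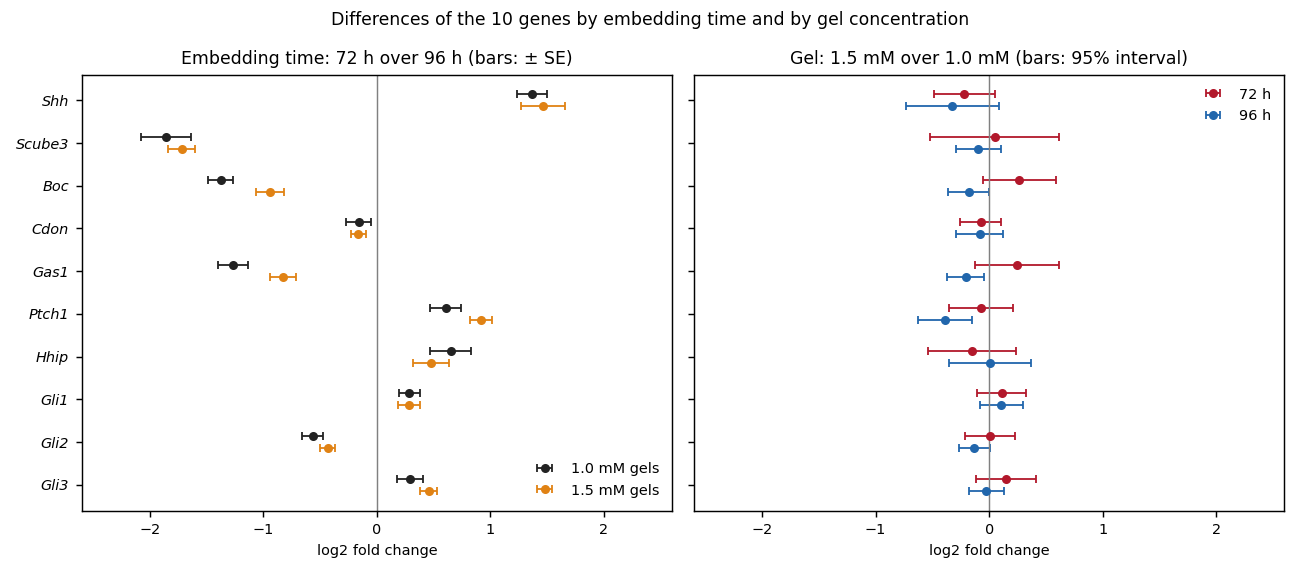
Log2 fold changes (horizontal axis) of the 10 genes. Left, embedding at 72 h over 96 h in each gel with SE bars, from -1.85 for *Scube3* to 1.46 for *Shh*; right, stiffer over softer gels at each embedding time with 95% intervals, where the estimates lie between -0.39 and 0.27.

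The members are treated as chosen by embedding time and not by gel concentration, so the gel contrast was tested. It uses the same libraries whose earlier results were known, so it is not independent of that choice. The question was whether the stiffer gel changes expression at a fixed embedding time. None of the 10 members passed at 72 h or at 96 h by edgeR's quasi-likelihood test, nor by DESeq2 or limma-voom. These fits held no replicate block. With the replicate number as a block, *Ptch1* passed at 96 h by edgeR, among 289 of 15861 genes, so its call there is not settled. At an unadjusted p below 0.05 there were 0 members at 72 h and 3 at 96 h (*Boc*, *Gas1* and *Ptch1*). Over all genes 0% of 15563 at 72 h and 0% of 15861 at 96 h passed with edgeR, with 1074 and 1578 genes at an unadjusted p below 0.05. DESeq2 passed 12 and 87 genes and limma-voom 0 and 2.
At 72 h the log2 fold change of *Shh*, stiffer over softer, was -0.22 with a 95% interval from -0.49 to 0.05, and that of *Boc* was 0.27 with an interval from -0.05 to 0.59. The interval of *Scube3* was the widest, from -0.52 to 0.62. At 96 h *Ptch1* had the largest difference, -0.39 with an interval from -0.63 to -0.15 and an edgeR adjusted p of 0.299, and it was lower in the stiffer gels by 1.31-fold. Without a filter on low counts the edgeR adjusted p of *Ptch1* was 1.1e-05 at a log2 fold change of -0.39, and 333 of 29248 genes then passed. *Shh* stood at -0.32 (-0.73 to 0.08), *Gas1* at -0.21 (-0.37 to -0.05) and *Boc* at -0.18 (-0.36 to -0.0012). *Hhip*, *Gli3* and *Gli1* were at 0.01, -0.02 and 0.11, with intervals that all held 0.
Across both embedding times 0.0305% of genes passed, 5 of 16388, and no member was among them. There *Shh* was at -0.27 (95% interval -0.53 to -0.01) and *Ptch1* at -0.23 (-0.44 to -0.01), both with unadjusted p below 0.05. Without a filter on low counts both passed, with edgeR adjusted p of 0.0317 and 0.0102, but so did 512 of 31406 genes, against 5 of 16388 with it.

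Whether the embedding-time difference itself differed between gels was tested as an interaction. It is built from the embedding-time differences by which the members are treated as chosen, so the values of members are a description. By edgeR's quasi-likelihood test 0% of 16388 genes passed, 708 of them at an unadjusted p below 0.05, and DESeq2 passed 2 genes and limma-voom 0, none of them a member. The estimates were largest for *Boc* at 0.45 (95% interval 0.06 to 0.84) and *Gas1* at 0.45 (0.02 to 0.88), the 2 members at an unadjusted p below 0.05. For these, both lower at 72 h, a positive value means a smaller deficit in the stiffer gels. *Ptch1* followed at 0.32 (-0.09 to 0.72), where a positive value means a larger excess at 72 h in the stiffer gels, and *Shh* and *Scube3* stood at 0.11 (-0.43 to 0.65) and 0.15 (-0.45 to 0.74). The adjusted p was at least 0.953 for all members. Without a filter on low counts *Gas1* passed, with an edgeR adjusted p of 0.0407, among 238 of 31406 genes. *Boc* and *Gas1* thus crossed the fold threshold only in softer gels, without a difference between gels that passed the test.

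On FPKM the order of the members changed with embedding time. The change of leader did not hold on CPM per kilobase of exon, where *Gas1* ranked 1st in all 4 groups, *Ptch1* 4th at 72 h in both gels, and 6th and 7th at 96 h in softer and stiffer gels. At 72 h in softer gels *Ptch1* led with 27.5 ± 5.68 (SD, n = 3), followed by *Gas1* at 21.4 ± 5.15, *Gli1* at 17.0 ± 1.37, *Shh* at 14.8 ± 2.14 and *Gli3* at 14.4 ± 2.51. Each of these overlapped its neighbour. *Cdon* at 8.61 ± 0.60 and *Boc* at 7.74 ± 0.98 overlapped each other, and *Gli2* at 6.28 ± 0.72 and *Hhip* at 0.98 ± 0.23 lay apart below them.
At 96 h in softer gels *Gas1* led alone with 52.9 ± 1.33 FPKM, and *Boc* at 20.4 ± 2.22 was level with *Ptch1* at 18.2 ± 2.30. *Gli1* at 13.99 ± 1.08 lay apart, and *Gli3* at 11.8 ± 0.73, *Cdon* at 9.76 ± 1.45 and *Gli2* at 9.36 ± 0.45 each overlapped the next. *Shh* stood 8th of the 10 genes, at 5.85 ± 0.83, above *Scube3* at 3.42 ± 0.20 and *Hhip* at 0.62 ± 0.067.
The stiffer gels gave much the same order. At 72 h *Ptch1* at 25.7 ± 2.06, *Gas1* at 24.9 ± 5.12, *Gli1* at 17.7 ± 2.06 and *Gli3* at 15.6 ± 1.52 overlapped in turn, *Shh* at 12.5 ± 1.91 lay apart, *Boc* at 9.19 ± 2.10 overlapped *Cdon* at 8.05 ± 0.57, and *Gli2* at 6.27 ± 0.76 and *Hhip* at 0.87 ± 0.045 lay below. At 96 h *Gas1* at 44.5 ± 3.12 lay apart, *Boc* at 17.4 ± 1.74, *Gli1* at 14.6 ± 2.62, *Ptch1* at 13.5 ± 2.59 and *Gli3* at 11.2 ± 0.62 overlapped in turn, as did *Cdon* at 8.85 ± 0.75 and *Gli2* at 8.31 ± 0.46. *Shh* at 4.46 ± 1.55 overlapped *Scube3* at 3.13 ± 0.43, and *Hhip* was last at 0.61 ± 0.14. For *Scube3* at 72 h, CPM per kilobase of exon replaces FPKM, at 0.85 ± 0.33 in softer and 0.88 ± 0.10 in stiffer gels, below *Hhip* at 1.29 ± 0.28 and 1.16 ± 0.070.

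Shares within a family do not depend on the scaling between libraries. Of the summed FPKM of the 3 Gli factors, *Gli2* made up 16.7% ± 1.14 (SD, n = 3) at 72 h and 26.6% ± 0.96 at 96 h in softer gels, and 15.8% ± 0.49 and 24.4% ± 0.92 in stiffer gels, with no overlap between embedding times. *Gli1* made up 45.3% ± 5.85 and 39.8% ± 2.16 in softer gels and 44.7% ± 2.78 and 42.6% ± 3.96 in stiffer gels, which overlap. *Gli3* made up 38.0% ± 4.76 and 33.6% ± 1.25, then 39.5% ± 2.66 and 32.9% ± 3.17. By counts, not scaled for length, *Gli3* had the largest mean share in each group, at 49.5% and 43.2% in softer and 50.9% and 43.0% in stiffer gels. *Gli1* then made up 32.3% and 28.1%, and 32.2% and 30.5%. The summed Gli FPKM kept between 34.1 ± 3.10 (96 h, stiffer) and 39.6 ± 3.65 (72 h, stiffer).
The summed FPKM of the 3 co-receptors was 37.8 ± 6.29 at 72 h and 83.1 ± 4.89 at 96 h in softer gels, and 42.1 ± 7.70 and 70.7 ± 3.25 in stiffer gels. On FPKM *Gas1* was the largest part in every library, from 53.1% to 66.4% of the sum. By counts, which are not scaled for length, *Cdon* exceeded *Gas1* in replicates 1 and 2 at 72 h in softer gels, with 42.6% against 35.5% and 38.8% against 37.7%. *Cdon* made up 23.1% ± 3.46 at 72 h but 11.7% ± 1.08 at 96 h in softer gels, and 19.4% ± 2.74 and 12.6% ± 1.56 in stiffer gels. *Boc* went from 20.6% ± 0.93 to 24.5% ± 1.27 and from 21.7% ± 1.27 to 24.6% ± 1.82.

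**Figure D3:**
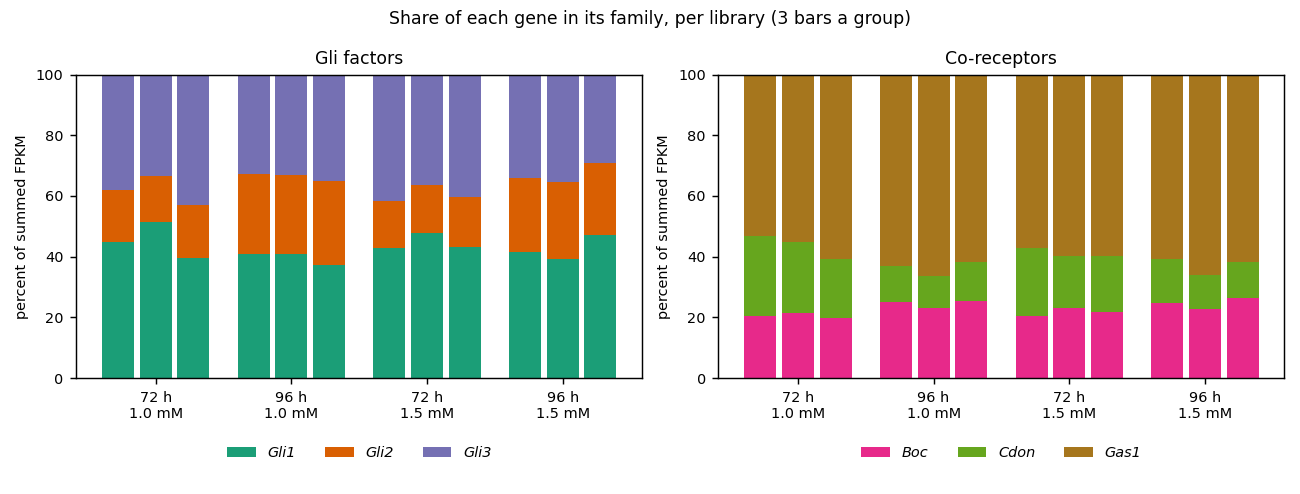
Percent of summed FPKM (vertical axis) of each Gli factor (left) and each co-receptor (right) in every library, 3 bars per group. *Gli2* takes 15.4% to 17.5% at 72 h and 25.8% to 27.7% at 96 h in softer gels, and *Cdon* a larger share at 72 h in both gels.

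Beyond the 10 genes, 25 other genes of the pathway were listed by role, from ligands to the cilium in which the pathway signals, and 24 in softer and 23 in stiffer gels had enough counts to be tested. This list and those below were also drawn up with earlier results known, and some genes were named after their values were seen. P-values of listed genes for embedding time are therefore a description. In softer gels 1 was higher at 72 h, 1 lower and 22 did not pass, and in stiffer gels 4 were higher, 1 lower and 18 did not pass. The shares over all genes tested were 5.97% higher and 3.27% lower in softer gels, and 10.4% and 8.98% in stiffer gels. The median log2 fold change was 0.07 and -0.0075, against -0.0054 and -0.0052 over all genes tested. The other ligands were scarce: *Ihh* had 11 to 41 counts per library and *Dhh* up to 2, which did not enter the test. *Disp1*, which exports the ligand, was lower at 72 h in both gels, with log2 fold changes of -0.38 ± 0.097 and -0.33 ± 0.069 (SE) and edgeR adjusted p of 0.0315 and 0.0124. *Scube2*, the relative of *Scube3* best known for ligand release, was higher at 72 h in softer gels (edgeR adjusted p = 0.025), on 10 to 14 counts against 1 to 5, too few for a fold to be given, and was too low to be tested in stiffer gels. Its call was lost with DESeq2 (adjusted p = 0.0611) and when replicate 1 or 3 at 72 h, or replicate 2 or 3 at 96 h, was left out.
The signal transducer *Smo* held 248 to 290.1 CPM in softer and 231 to 265 CPM in stiffer gels, and its log2 fold changes of 0.10 ± 0.077 and 0.13 ± 0.052 (SE) did not pass, with edgeR adjusted p of 0.461 and 0.112. *Sufu*, which restrains the GLI proteins, was at 0.18 ± 0.096 in softer gels (adjusted p = 0.3) and was higher at 72 h in stiffer gels by 0.31 ± 0.069 (adjusted p = 0.0163), a call lost when replicate 3 at 72 h or replicate 2 or 3 at 96 h was left out, and with limma on both FPKM scales. In the same gels 3 more intracellular regulators were higher, namely *Spop* by 0.97 ± 0.28, *Prkar1a* by 0.28 ± 0.056 and *Gsk3b* by 0.35 ± 0.091 (edgeR adjusted p = 0.0398, 0.0115 and 0.0273), while 0 of the 8 passed in softer gels by edgeR, with 0 at an unadjusted p below 0.05. None of the 5 cilium genes and none of the 6 membrane genes passed in either gel by edgeR, with 0 and 2 of them at an unadjusted p below 0.05 in each gel.

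Among 21 genes known to respond to Hedgehog, 4 were higher at 72 h, 4 lower and 12 did not pass in softer gels, and 5, 2 and 11 in stiffer gels. Over all genes tested 5.97% were higher and 3.27% lower in softer gels, and 10.4% and 8.98% in stiffer gels. The median log2 fold changes of the list were -0.07 and 0.27. *Nkx2-2*, a ventral neural tube factor, was higher at 72 h in both gels. It had 57 to 88 counts against 17 to 28 in softer gels and 52 to 87 against 6 to 16 in stiffer gels. Its log2 fold changes were 1.73 ± 0.27 and 2.56 ± 0.38 (SE, edgeR adjusted p = 0.0028 and 0.00415). *Foxa2*, made in floor plate, notochord and endoderm, was higher by 0.61 ± 0.17 and 0.66 ± 0.093 (adjusted p = 0.0499 and 0.00337).
*Olig2*, of the motor neuron domain next to that of *Nkx2-2*, ran the other way: it had 0 or 1 counts in each library embedded at 72 h, 13 to 21 at 96 h in softer gels and 6 to 41 at 96 h in stiffer gels. It was lower at 72 h in softer gels (edgeR adjusted p = 0.00169) and was not tested in stiffer gels, and no fold is given since the 72 h libraries are at or under the floor of 3 counts. *Ntn1*, a floor plate guidance cue, was lower at 72 h in softer gels by 0.95 on the log2 scale (log2 fold change -0.95 ± 0.17, adjusted p = 0.00512) and stood at -0.29 ± 0.19 in stiffer gels (adjusted p = 0.307).
In the sclerotome group *Pax1*, an early sclerotome factor, was lower at 72 h in both gels, with 40 to 83 counts against 122 to 183 in softer gels and 27 to 70 against 67 to 276 in stiffer gels. The ranges overlap in stiffer gels. Its log2 fold changes were -1.41 ± 0.29 and -1.54 ± 0.48 (SE, edgeR adjusted p = 0.0106 and 0.0497), and the second call was lost with DESeq2 and limma-voom (adjusted p = 0.0831 and 0.102) and without replicate 2 or 3 at 72 h or replicate 1 or 3 at 96 h, where it ran from -1.91 to -1.02. *Pax9* was lower in stiffer gels, at -0.50 ± 0.14, and *Foxc2* in softer gels, at -0.71 ± 0.18 (edgeR adjusted p = 0.04 and 0.0292). *Foxf1*, a target in gut mesenchyme, was higher in softer gels by 0.99 ± 0.15 (adjusted p = 0.00242) and the cyclins *Ccnd2* in softer and *Ccnd1* in stiffer gels by 0.49 ± 0.14 and 0.33 ± 0.072 (edgeR adjusted p = 0.0469 and 0.0156).

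The 4 dorsal genes that Hedgehog holds down in the neural tube also split. *Pax3*, a dorsal neural tube and somite factor, was lower at 72 h in softer gels, at -1.43 ± 0.17 (SE, edgeR adjusted p = 0.000625) and stood at -0.55 ± 0.19 in stiffer gels (adjusted p = 0.0645), where it passed with DESeq2 (0.0155) and without a filter on low counts (0.00112). *Msx1* and *Msx2*, BMP-induced factors, were higher at 72 h in softer gels, by 1.54 ± 0.36 and 2.59 ± 0.46 (edgeR adjusted p = 0.0199 and 0.00551). The call of *Msx1* was lost with DESeq2 (adjusted p = 0.0616) and with limma on log2(FPKM + 1) and log2(FPKM + 0.1) (0.0667 and 0.115), and that of *Msx2* on the last (0.0595). In stiffer gels they stood at -0.05 ± 0.32 and 0.18 ± 0.35 (adjusted p = 0.922 and 0.753). *Msx1* held 35.4 to 56.2 CPM at 72 h against 5.63 to 20.9 CPM at 96 h in softer gels, and 45.9 to 54.7 CPM against 33.0 to 89.98 CPM in stiffer gels, where replicate 2 at 96 h was the highest of all 12 libraries. Without that replicate the log2 fold changes of *Msx1* and *Msx2* in stiffer gels were 0.55 and 0.85, and both then passed (edgeR adjusted p = 0.0232 and 0.0175). The interaction of embedding time and gel was -1.59 (95% interval -2.78 to -0.40) for *Msx1* and -2.40 (-3.82 to -0.98) for *Msx2*, with an edgeR adjusted p of 0.953 for each. Between gels at 96 h *Msx1* was at 1.85 (0.93 to 2.78) and *Msx2* at 2.73 (1.64 to 3.81), stiffer over softer, with adjusted p of 0.189 and 0.122. *Pax7* did not pass in either gel.

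**Figure D4:**
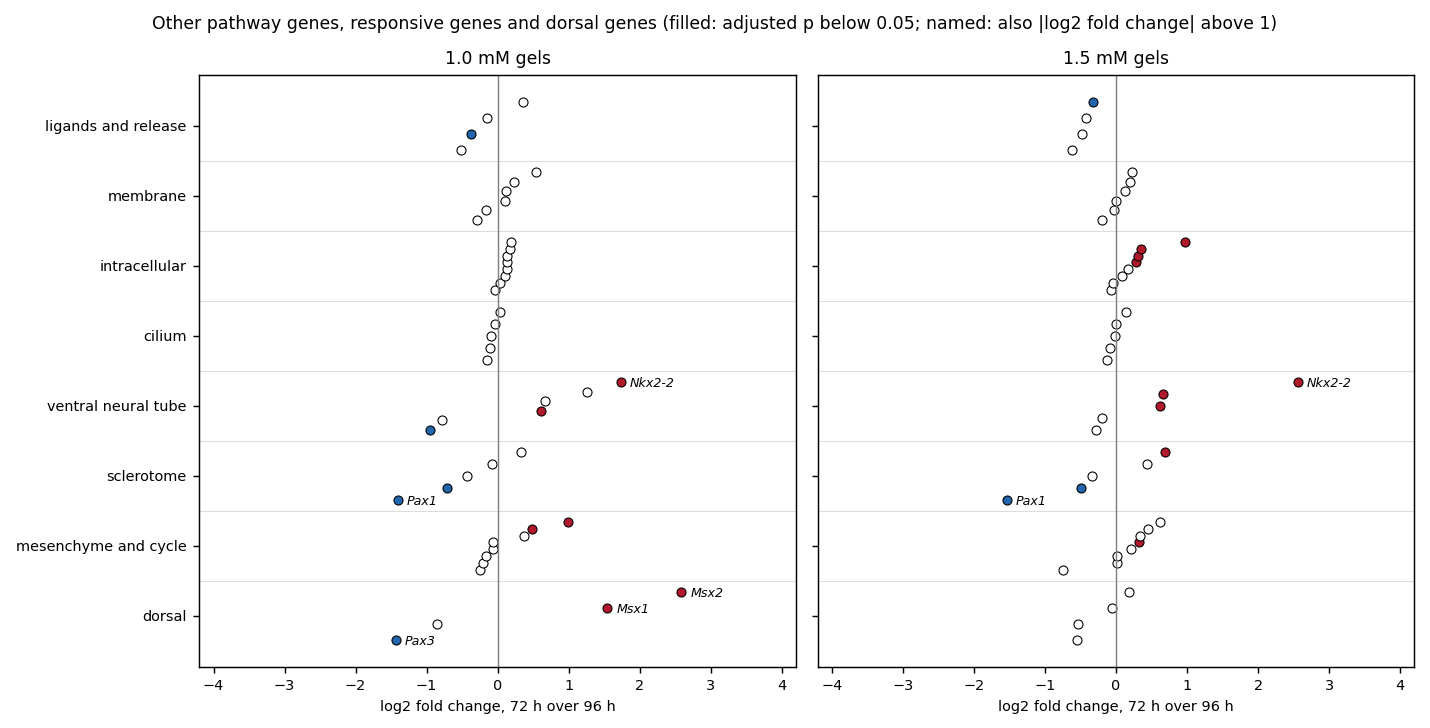
Log2 fold change of embedding at 72 h over 96 h (horizontal axis) for other pathway genes, responsive genes and dorsal genes, by role, in softer gels (left) and stiffer gels (right). Filled points passed an adjusted p below 0.05 and named points were also beyond an absolute log2 fold change of 1; *Olig2* and *Scube2*, with libraries at 0 or 1 counts, are not drawn.

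Several lists of tissue markers also differed between embedding times, while others overlapped, and their part in the differences above was not tested. All floor plate and sclerotome markers are also among the responsive genes above. Other lists share genes with those above or with each other, such as *Foxa2* and *Pax3*, so these sums are not separate results. Beside the counts below, 5.97% of all genes tested were higher and 3.27% lower at 72 h in softer gels, and 10.4% and 8.98% in stiffer gels. The 72 h and 96 h libraries lay apart for 28.4% and 39.9% of single genes in softer and stiffer gels. The summed CPM of 7 notochord and node markers was 308.3 to 523.9 in the libraries embedded at 72 h and 152.5 to 253.5 at 96 h, with no overlap, and 4 of the 7 were higher at 72 h in softer and 6 of 7 in stiffer gels. *T*, which marks the tail bud and notochord, was higher by 1.17 ± 0.14 and 1.42 ± 0.097 (SE, edgeR adjusted p = 0.000604 and 0.00026). *Noto*, of the node and notochord, was higher by 1.205 ± 0.28 in stiffer gels (edgeR adjusted p = 0.0181), with 0.74 ± 0.30 in softer gels (edgeR adjusted p = 0.159). Both genes were picked after their values were seen, so these p-values are a description. The endoderm list of 8 genes held 618 to 690 CPM at 72 h and 514 to 591 CPM at 96 h in softer gels and 441 to 575 and 418 to 560 CPM in stiffer gels, with 2 of the 8 higher in each gel and *Sox17* lower in stiffer gels.
The 5 floor plate and ventral neural tube genes summed to 94.6 to 133 CPM at 72 h and 169 to 183 CPM at 96 h in softer gels, and to 88.6 to 131 and 107 to 145 CPM in stiffer gels. The list split: by edgeR 2 of the 5 were higher at 72 h and 2 lower in softer gels. In stiffer gels 2 of 4 tested were higher and 0 lower. The neural tube list, of which *Olig3* and *Neurog2* were at 0 to 9 counts, held 118 to 136 and 89.7 to 109 CPM in softer gels and 130 to 149 and 97.0 to 122 CPM in stiffer gels. Of its 5 genes tested, 2 were higher at 72 h and 1 lower in softer gels, and 1 and 1 in stiffer gels.
The somite and sclerotome sums were lower at 72 h, unlike *Shh*. The 7 somite markers summed to 213.5 to 404.0 CPM at 72 h and 764.2 to 893.4 CPM at 96 h in softer gels, and to 270.1 to 482.7 and 599.6 to 825.0 CPM in stiffer gels, and 7 and 5 of the 7 were lower at 72 h. The 3 sclerotome markers, *Pax1*, *Pax9* and *Nkx3-2*, summed to 7.42 to 13.5 and 14.4 to 18.4 CPM in softer gels, and to 7.21 to 10.5 and 10.6 to 20.2 CPM in stiffer gels. In softer gels 1 of the 3, *Pax1*, passed by edgeR. The 6 presomitic mesoderm genes, with *Msgn1* at 0 to 3 counts, spanned 31.5 to 63.0 CPM with overlap between embedding times in both gels. The 6 cardiac and anterior mesoderm markers summed to 292 to 553 CPM at 72 h and 51.9 to 208 CPM at 96 h, with 6 of 6 higher at 72 h in softer and 5 of 6 in stiffer gels. The 5 endothelial markers held 217 to 329 CPM at 72 h and 213 to 289 CPM at 96 h, and 1 of 5 was higher in softer and none passed in stiffer gels by edgeR, with 2 at an unadjusted p below 0.05.

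**Figure D5:**
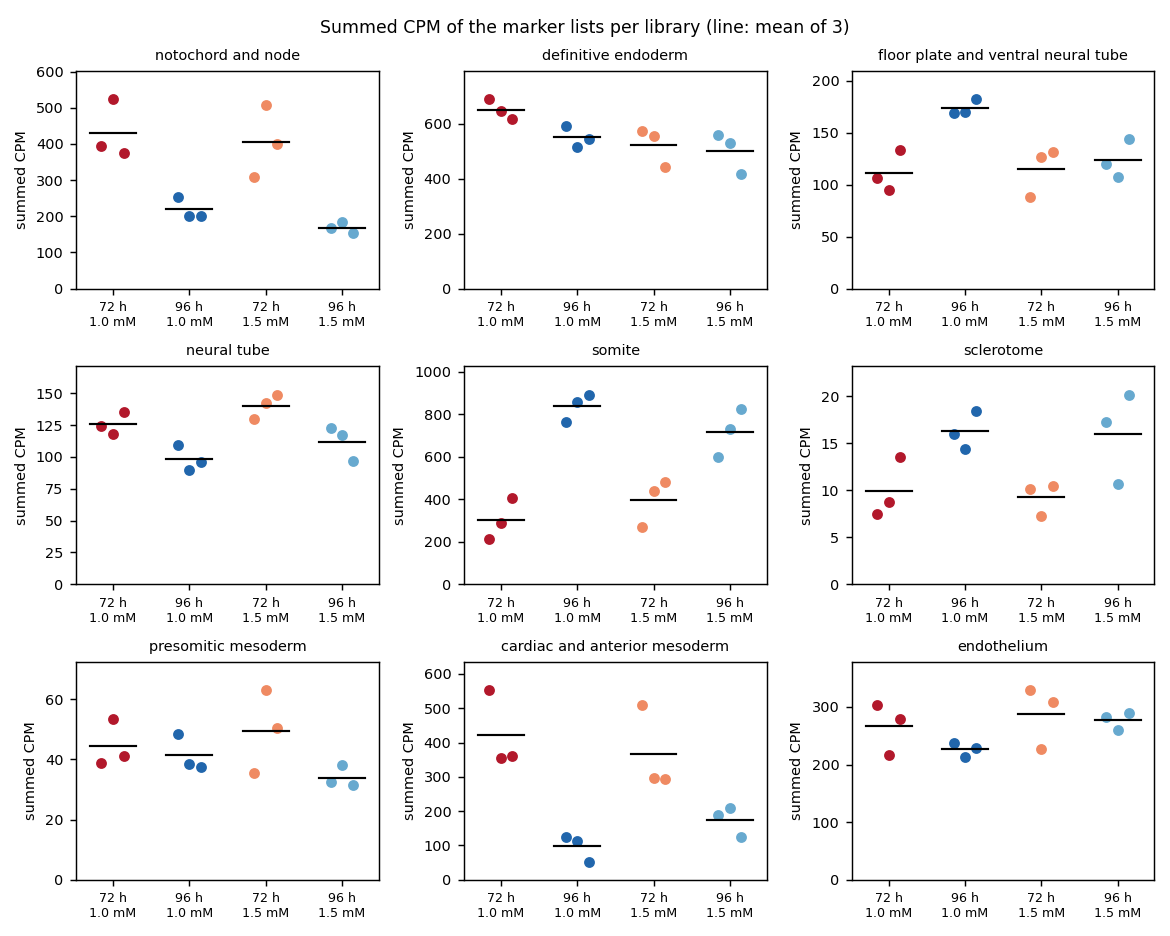
Summed CPM (vertical axis, from 0) of each marker list in every library by group, with the mean as a line. The notochord and node list lies between 308.3 and 523.9 CPM at 72 h and between 152.5 and 253.5 CPM at 96 h, and the somite list lies lower at 72 h in both gels.

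The genes most like *Shh*, *Boc* and *Gli1* were ranked by Pearson's r of log2 CPM over the 12 libraries, among the 12551 other genes that averaged 50 counts or more. For *Shh* and *Boc* the libraries of the embedding times form separate clusters, so r is also given within the 6 libraries of each embedding time, as a description. The 5 genes most like *Shh* were *Tmod2*, *Sqle*, *Efr3b*, *Tmem163* and *Scd1*, with r from 0.966 to 0.98. *Tmod2*, an actin-capping protein, came first and held r of 0.784 at 72 h and 0.84 at 96 h. *Sqle* and *Scd1*, enzymes of cholesterol and fatty acid synthesis, had r of 0.66 and 0.18 at 72 h and 0.953 and 0.965 at 96 h.
Most like *Boc* were *Ssc5d*, *Plch1*, *Lefty1*, *Hoxa3* and *Hoxaas2*, with r from 0.981 to 0.986. *Lefty1*, a Nodal inhibitor, had 0.46 CPM on average at 72 h and 8.01 CPM at 96 h, with r of 0.939 and 0.737 within them, and *Hoxa3* 7.45 and 20.7 CPM with r of 0.816 and 0.867. *Gli1*, whose libraries lie closer together, was most like *Tbc1d10b*, *Serpinb6a*, *Sema5b*, *Exoc6* and *Atg16l2*, with r from 0.892 to 0.921. Within embedding times *Tbc1d10b* had r of 0.844 and 0.809, and *Sema5b*, a semaphorin, 0.823 and 0.681.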

How the data were processed

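Bulk RNA-seq libraries of embedded gastruloids were re-analysed from the deposited tables. Per the labels, libraries were stranded, poly-A selected and read as paired 75 bp ends, and RNA quality numbers were above 9. The authors trimmed reads with cutadapt 4.4 and aligned them with STAR 2.7.10b to mm10. The counts were deposited as raw counts per gene with no normalization, and the strand setting of counting is not given in the sources used here. The FPKM values were computed by the authors with Cufflinks 2.2.1.3 and deposited as a second table, with 55138 genes against 55141 in the count table. A deposited table of the authors' DESeq2 comparisons (log2 fold changes and adjusted p-values) was not used.

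The 36 mitochondrially encoded genes were left out, after the authors' methods. R 4.3.3 was used with edgeR 4.0.16 (TMM, filterByExpr by group with a minimum count of 10 and minimum total of 15, glmQLFit and glmQLFTest), and DESeq2 1.42.0 and limma 3.58.1 as alternatives. Each pairwise comparison was fitted on its own 6 libraries, and the averages and the interaction on all 12. P-values were adjusted over all genes tested. The code was run on simulated counts for the gel contrast at 72 h, with large planted changes and no shared replicate effect. That run does not bear on smaller differences or on such an effect. Log2 CPM used a prior count of 2. Coordinates are 1-based mm10 positions of the deposited table, and strands are from GENCODE. The methods call the replicates biological, and p-values measure the spread between these pooled libraries. Depth was even between libraries. What limits precision was not tested, and some genes rest on few counts.

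The members and lists were chosen with earlier results of these data known. All 10 members are named, the lists by their counts, *Smo*, *Sufu* and every listed gene called DE in either gel by value, and the 5 genes most like *Shh*, *Gli1* and *Boc*. Other listed and marker genes given with values (*Disp1*, *Spop*, *Prkar1a*, *Gsk3b*, *Ihh*, *Dhh*, *Foxa2*, *Ntn1*, *Pax9*, *Foxc2*, *Foxf1*, *Ccnd1*, *Ccnd2*, *T*, *Noto*) were picked after their values were seen. Some listed genes are not reported here by name. Alternatives were DESeq2, limma-voom, RLE and upper-quartile scaling, no filter, the replicate number as a block, all libraries in 1 fit, no fold threshold, limma on log2(FPKM + 1) and log2(FPKM + 0.1), and each library left out.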

Additional observations from a re-analysis of the deposited data

How the results depend on the processing

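Of 1914 values recomputed under an alternative, 1740 were classed as the same, 63 changed sign, 50 were weaker and 37 stronger. For log2 fold changes, the same meant an unchanged direction and side of the threshold. The rest were numbers of genes called, compared within a set ratio, and mean FPKM and shares, compared within 1 SD. Leaving 1 of 3 libraries out cannot move a mean by 1 SD, so those values could only come out the same. The other 24 were family shares, which moved when counts replaced FPKM. No scaling moved the median of all genes by 0.1 (log2) or more, and depth was even, with 3 libraries per group. Causes were not tested. Without the fold threshold, members called numbered 7 in softer gels (4 with it), 7 in stiffer gels (2) and 9 across both (4), and other listed genes 13 (7), 12 (2) and 24 (6). On log2(FPKM + 1) and log2(FPKM + 0.1), listed genes called DE were 2 and 3 in softer gels, 0 and 0 in stiffer gels and, with the first, 1 across both, while the second called 1 member in stiffer gels. DESeq2, limma-voom and RLE factors each called 1 listed gene in stiffer gels. Without a filter 2 listed genes were DE for the gel at 96 h, 2 for the gel across times and 2 for the interaction, against 0 with it, and 322 and 333 of all genes passed for the gel at 72 h and 96 h.

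*Msx1* in stiffer gels (72 h over 96 h) was 0.10 with limma-voom, 0.08 with the replicate block and 0.10 and 0.11 on the FPKM scales. For the gel at 72 h *Gli2* was -0.02 with upper-quartile scaling and -0.0021 and -0.0025 on the FPKM scales, and at 96 h *Hhip* was -0.0028 with limma-voom and -0.00074 with the replicate block. For the gel across times the FPKM scales gave -0.0066 and -0.0018 for *Boc* and -0.020 and -0.018 for *Gas1*. For the interaction *Cdon* was -0.00013 with limma-voom, -0.021 with upper-quartile scaling and -0.0049 without a filter, and *Gli1* -0.021 and -0.0046 under the last 2.

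Leaving out each library in turn gave *Msx1* from -0.31 to 0.55 and *Msx2* from -0.11 to 0.85 (time, stiffer gels). For the gel at 72 h it gave *Scube3* from -0.20 to 0.37, *Ptch1* from -0.19 to 0.10 and *Gli2* from -0.063 to 0.084, and at 96 h *Cdon* from -0.19 to 0.025, *Hhip* from -0.16 to 0.11 and *Gli3* from -0.084 to 0.028. For the gel across times *Scube3* ran from -0.14 to 0.077, *Boc* from -0.036 to 0.097 and *Gas1* from -0.058 to 0.072. For the interaction *Shh* ran from -0.059 to 0.41, *Scube3* from -0.11 to 0.45, *Cdon* from -0.10 to 0.11, *Hhip* from -0.34 to 0.023 and *Gli1* from -0.087 to 0.11. Listed genes called DE ran from 1 to 3 in stiffer gels and from 0 to 1 for the gel at 96 h, where the 1 arose without 96h_1.5mM replicate 3.

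Replicate numbers are shared between groups. The deviations of same-numbered libraries correlated positively in all 12 pairs, from 0.0439 to 0.302, with 8 over 0.1. Whether the numbers mark shared batches was not tested. The main fits left the numbers out, so calls that change with the block are not settled. With the replicate block, 43 and 289 of all genes passed for the gel at 72 h and 96 h, against 0 and 0 without it, 2 listed genes were DE at 96 h, and *Ptch1* passed there with an edgeR adjusted p of 0.000737. Members that passed for embedding time numbered 8 in softer and 9 in stiffer gels with the block, against 7 and 7.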
